A study of Homo sapiens with 4 samples.

Results

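The genes described here encode the nuclear pore complex, and their transcript levels were measured in HEK-293 cells, an established line from human embryonic kidney that also expresses neuronal genes. The members were the rows of the expression table whose symbol began with NUP and a digit, together with RANBP2, TPR, SEH1L, SEC13, RAE1, AAAS, POM121 and AHCTF1, placed on the assembled chromosomes. This rule used the gene symbols and no measured value. It found 30 of 24934 gene rows, on 17 chromosomes, and 28 of the 30 reached 1 FPKM (fragments mapped to a gene, scaled to transcript length and library size) in at least 1 library. NDC1, a membrane nucleoporin that the rule also named, was listed only under its older symbol TMEM48 and was therefore not a member.

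The cells received siRNA at 10 nM by lipid transfection, and RNA was collected after 48 h. ZSCAN5A, which encodes a zinc finger protein that binds DNA, was targeted by 2 different siRNAs, si4 and si5. The related gene ZSCAN5B was targeted by si1, and a scrambled siRNA was the negative control. With 1 library for each siRNA, the differences could not be set against the spread between replicates, and they are given by size with no p-value. A limma fit that takes si4 and si5 as replicates was run as an alternative only. By the paper's qRT-PCR, the related gene ZSCAN5D was also lower with si4 and si5, and less so with si1. ZSCAN5B was higher with si4 in the same assay. The comparisons ask how the pore genes stood after treatment with siRNAs aimed at either zinc finger gene. They are the mean of si4 and si5 against the control, and si1 against the control, and they share the same control library. A gene passed the fold rule where the ratio of FPKM values exceeded 1.5-fold with at least 1 FPKM in a library of the comparison, and a looser rule of 1.2-fold was read beside it.

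The nuclear pore complex is the channel in the nuclear envelope through which proteins, messenger RNA and ribosomal subunits pass. Its scaffold consists of outer rings built from the Y complex and of an inner ring, and transmembrane nucleoporins anchor it in the membrane. Nucleoporins with phenylalanine-glycine repeats fill the central channel, filaments on the cytoplasmic face take part in mRNA export, and a basket reaches into the nucleus. When the envelope breaks down in mitosis the pore is taken apart, and some scaffold subunits move to kinetochores.

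The depth recovered from the steps between low FPKM values was highest in the si5 library, at 1.54 times the control. The si4 (1.09 times) and si1 (1.02 times) libraries lay near the control. The paper gives a much narrower range of reads per sample. With the Cufflinks options unknown, the recovered scale may not equal sequencing depth. ZSCAN5A stood at 0.730 FPKM with si4 and 0.713 FPKM with si5, against 2.42 FPKM in the control and 2.53 FPKM with si1. ZSCAN5B stood at 0.0948 FPKM with si1 and 0.0903 FPKM in the control, and at 0.0331 and 0.0663 FPKM with si4 and si5. These values are too low to judge the knockdown. The paper reports that si1 reduced the ZSCAN5B transcript by qRT-PCR and the protein by Western blot. The si1 sample is called here the library labelled ZSCAN5B knockdown. Of the markers of the line, VIM was at 269.7 to 358.8 FPKM and NEFL at 37.0 to 45.2 FPKM, while NES (0.956 to 1.76 FPKM) and PAX2 (0.584 to 1.16 FPKM) were low. The defining genes of blood, endothelial, liver and fibroblast cells (PTPRC, CD3E, PECAM1, ALB and COL1A2) were at or near 0 in every library, at most 0.0335 FPKM. In such whole cultures a lower level in each cell and fewer cells with the transcript cannot be told apart.

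The sequences that bear on these genes are those of the siRNAs, because an siRNA can also lower transcripts whose 3′ UTR matches its seed (bases 2 to 8 of the guide strand). The targeted 21-base sequences were read from the study's oligonucleotide list and are written 5′ to 3′ on the sense strand, with the 7 bases that pair with the seed in capitals:
si4: cgagaagaggtttACGTGTAa
si5: aagctagtcatccACAAGAGa
si1: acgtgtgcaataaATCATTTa
The letters ACGTGTA (si4) occurred in the annotated 3′ UTR of 3.36% of 11995 expressed genes, ACAAGAG (si5) in 12.0% and ATCATTT (si1) in 23.4%. Among the 28 expressed pore genes the si4 letters occurred in NUP93 alone, the si5 letters in NUP155 alone, and the si1 letters in NUP50, NUP93 and TPR. The matches are shown with 10 bases on each side, in GRCh37 coordinates, so that they can be set beside the levels of those genes given further on:
NUP93, si4 match (chr16:56882636-56882662, + strand): tagataggccACGTGTAtttatcagcc
NUP155, si5 match (chr5:37290638-37290664, - strand): agtaatagcaACAAGAGagaagaagag
NUP50, si1 match (chr22:45581749-45581775, + strand): gtcctcatgaATCATTTgagactagta
TPR, first si1 match (chr1:186282700-186282726, - strand): gacaatgtttATCATTTtaatagagat
TPR, the other si1 match (chr1:186282184-186282210, - strand): ttgcagtgccATCATTTtaattgaaat
NUP93 also held 2 matches to the si1 letters. A match is a description of the letters and not a site of action. The UTRs are those of the GENCODE canonical transcripts, some of which run past the locus given in the expression table. All matches in NUP93 and the si5 match in NUP155 lie outside the loci given there. Those in NUP50 and TPR lie inside.

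The 28 expressed pore genes were among the better expressed genes of the line, with a median of 31.3 FPKM in the control against 9.95 FPKM over 13078 gene rows at 1 FPKM or above in some library. Their levels covered a 10.7-fold range in the control. SEC13 was the highest member in all 4 libraries, and AHCTF1 was the lowest of the 28 in all 4. Summed over the 30 members the level was 842 FPKM in the control, against 873, 859 and 851 FPKM with si4, si5 and si1. The sum thus differed little between libraries while single members moved in both directions. Total FPKM over all rows was 488036 in the control and 546239, 539502 and 537181 with si4, si5 and si1. The members' share of it was lower in every siRNA library, at 0.160%, 0.159% and 0.158%, against 0.173% in the control. The ratios given below are those of FPKM as deposited. The members were covered by about 1178 to 16883 fragments each in the control. For the ratio of si1 to the control, counting error alone gives an error of about 1.09% to 4.04%. That error says nothing about the spread between cultures, which these data do not give.

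**Figure D1:**
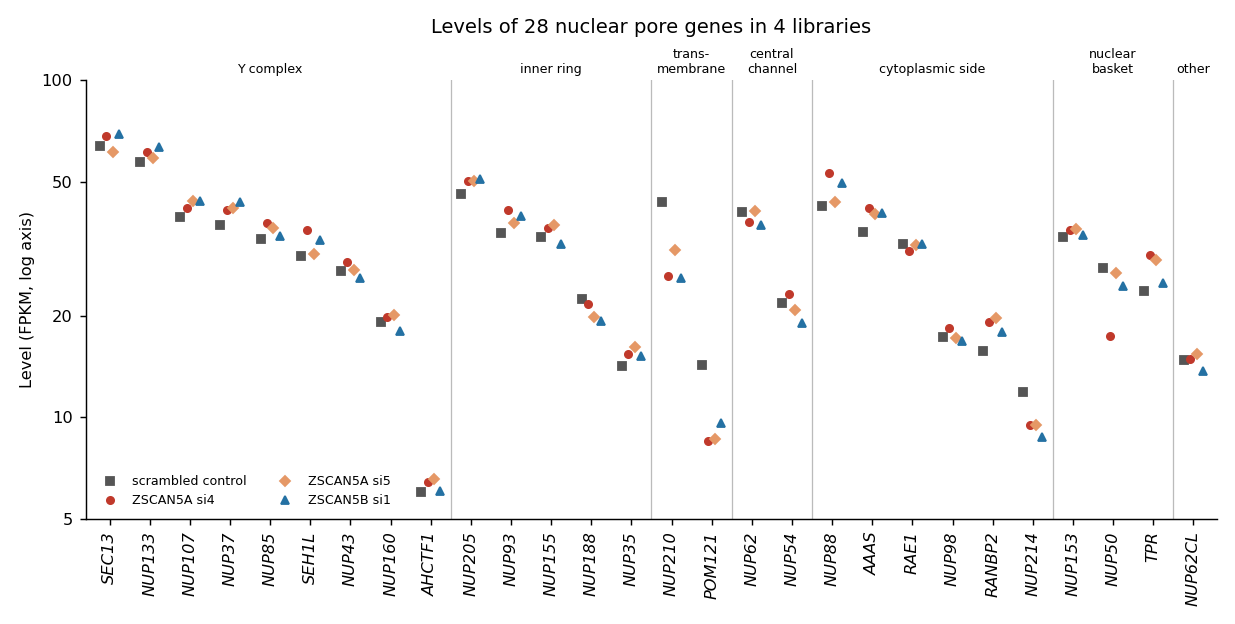
Level of each of the 28 expressed nuclear pore genes in FPKM on a log axis, in the control library and the 3 siRNA libraries, grouped by the part of the pore each belongs to and ordered by control level within a group. For NUP210, POM121 and NUP214 the control square lies above all 3 siRNA symbols, and for NUP50 the si4 circle (17.4 FPKM) lies far below the others.

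With the ZSCAN5A siRNAs, POM121 and NUP210 were lower than in the control beyond 1.5-fold (2 of 28, 7.14%) and no member was higher beyond it. Over all 12993 genes compared, 3.11% were lower and 0.677% were higher by this rule. At 1.2-fold, TPR and RANBP2 were also higher, and NUP214 and NUP50 were also lower. That makes 2 of 28 members higher and 4 of 28 lower (7.14% and 14.3%), against a background of 9.14% and 17.8%. The shares of members past the limits were thus near those of all genes for the looser rule.

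In the library labelled ZSCAN5B knockdown, NUP210 alone was lower beyond 1.5-fold and no member was higher, where 3.17% of 12921 genes were lower and 0.844% higher. At 1.2-fold NUP210, NUP214 and POM121 were lower, 3 of 28 or 10.7%, and none was higher, where the background was 17.4% lower and 11.1% higher. Most members therefore stood close to the control in each comparison. The median log2 ratio of the members was 0.07 with the ZSCAN5A siRNAs (all genes -0.02) and 0.02 with si1 (all genes -0.01). With the ZSCAN5A siRNAs 21 of 28 members stood above the control level, 75%, against 46.7% of all genes, and with si1 it was 15 of 28, or 53.6%, against 48.5%. Both scalings tried left these counts at 21 or 22 and at 16, and the length and GC correction (the median of genes with like GC content and transcript length subtracted from each ratio) made them 20 and 14.

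**Figure D2:**
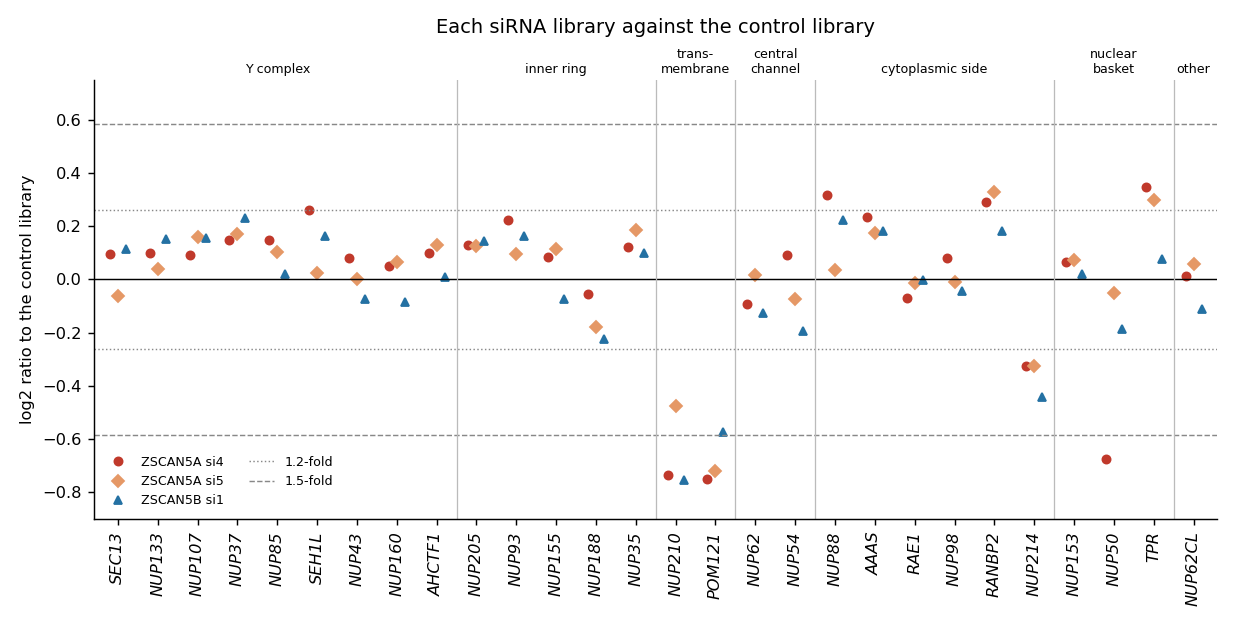
Log2 ratio of each siRNA library to the control library for the 28 expressed members, grouped by part of the pore, with dotted lines at 1.2-fold and dashed lines at 1.5-fold. Most points lie between the dotted lines. The points of the transmembrane members NUP210 and POM121 lie between -0.47 and -0.75, and the si4 point of NUP50 (-0.68) lies among them.

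Read library by library, the control lay below all 3 siRNA libraries for 14 of 28 members (50%, all genes 30.1%). These were AAAS, AHCTF1, NUP107, NUP133, NUP153, NUP205, NUP35, NUP37, NUP85, NUP88, NUP93, RANBP2, SEH1L and TPR. The control lay above all 3 for 6 members (21.4%, all genes 36.2%), namely NUP188, NUP210, NUP214, NUP50, POM121 and RAE1. Both counts rest on the single control library.

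**Figure D3:**
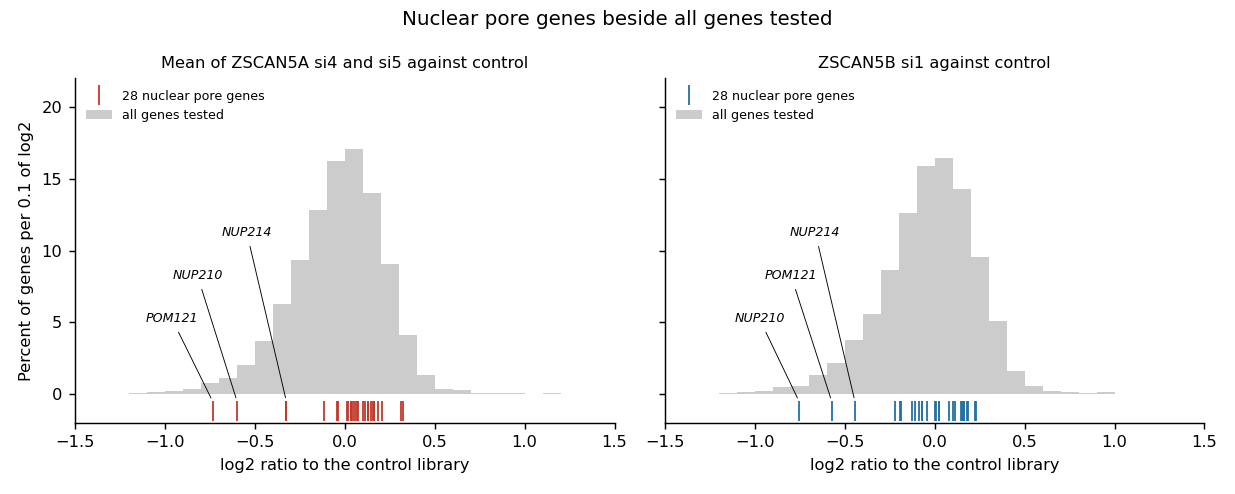
Distribution of the log2 ratio to the control over all genes tested (grey bars, percent of genes per 0.1 of log2) with the 28 expressed pore genes as ticks below the axis, for the mean of si4 and si5 (left) and for si1 (right). Most ticks lie under the middle of the bars, and NUP210, POM121 and NUP214 lie to the left of most genes. Under 0.2% of genes lie outside the range drawn.

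The Y complex is the main building block of the outer rings. All 9 of its members stood above the control with the ZSCAN5A siRNAs, as deposited and under both scalings, but by small amounts, from 0.02 to 0.16 on the log2 scale. With si1, 7 of 9 did, and NUP43 (-0.07) and NUP160 (-0.09) did not. After the length and GC correction it was 8 and 6 of 9, since SEC13 turned to -0.06 with the ZSCAN5A siRNAs and NUP85 to -0.06 with si1, and without si4 SEC13 also stood at -0.06. SEC13 (chr3:10342615-10362858), which also forms part of the vesicle coat COPII, was at 63.9 FPKM in the control and at 68.3, 61.3 and 69.1 FPKM with si4, si5 and si1. Its control value thus lay inside the range of the siRNA libraries. AHCTF1 (chr1:247002402-247094726), known as ELYS, recruits the Y complex to chromatin at the end of mitosis. It was at 6.001 FPKM in the control and at 6.42, 6.57 and 6.04 FPKM with si4, si5 and si1, a narrow range, and 31.5% of its transcript is identical to the pseudogene AHCTF1P1 in windows of 100 bases, which leaves its level uncertain to that extent. NUP37 had the largest ratios of the complex as deposited (0.16 with the ZSCAN5A siRNAs and 0.23 with si1), from 37.1 FPKM in the control to 43.6 FPKM with si1. After the correction its ratios were 0.09 and 0.10, and NUP133 had the largest (0.17 and 0.22). NUP107, NUP133, NUP85 and SEH1L lay between 0.07 and 0.15 with the ZSCAN5A siRNAs. Summed over the complex, the level was 314 FPKM in the control and 341, 327 and 338 FPKM with si4, si5 and si1. As a share of total FPKM it was lower in each siRNA library (0.0625%, 0.0605% and 0.0629%) than in the control (0.0643%).

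The inner ring joins the outer rings to the membrane and to the central channel. Of its 5 members, 4 stood above the control with the ZSCAN5A siRNAs and 3 with si1. NUP205 (chr7:135242662-135333499), a large scaffold subunit, was at 45.9 FPKM in the control and at 50.3, 50.1 and 50.8 FPKM with si4, si5 and si1, so the 3 siRNA libraries lay close together and above the control. NUP35 (chr2:183989083-184026408), which contacts the membrane, was at 14.2 FPKM in the control and at 15.4, 16.1 and 15.2 FPKM with si4, si5 and si1, again all above the control, but after the length and GC correction its ratios were 0.004 with the ZSCAN5A siRNAs and -0.11 with si1. NUP93, which holds the channel nucleoporins in place, was at 35.3 FPKM in the control and at 41.3, 37.7 and 39.5 FPKM with si4, si5 and si1. Its highest level was thus in the si4 library, whose seed letters its annotated 3′ UTR carries. NUP155, which carries the si5 letters, was at 34.3 FPKM in the control and at 36.4, 37.1 and 32.6 FPKM with si4, si5 and si1. Its levels with si4 and si5 were thus close. Both matches lie outside the loci given in the expression table. Over all genes the median log2 ratio of si4 to the mean of si5 and si1 was -0.16 with a match to si4 and 0.02 without one. For si5 against the mean of si4 and si1 it was -0.04 with a match to si5 and -0.01 without. Whether a match changed the level of either gene was not tested. NUP188, a paralog of NUP205, was the 1 member of the 5 below the control with the ZSCAN5A siRNAs. It was at 22.5 FPKM in the control and at 21.6, 19.9 and 19.3 FPKM with si4, si5 and si1, or -0.12 and -0.22 against the control with the ZSCAN5A siRNAs and si1. The correction turned the former to 0.07 and left -0.05 for the latter.

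Both transmembrane members stood below the control in every siRNA library. NUP210 (chr3:13357737-13461809), a glycoprotein whose bulk lies between the nuclear membranes, was at 43.6 FPKM in the control and at 26.2, 31.4 and 25.8 FPKM with si4, si5 and si1. All 3 siRNA libraries were lower, and si5 lay nearest to the control. The log2 ratio was -0.60 for the mean of si4 and si5, lower than in all but 2.87% of genes, and -0.75 for si1, lower than in all but 1.24%. For si5 by itself it was -0.47, short of 1.5-fold. NUP210 also fell short of 1.5-fold with the ZSCAN5A siRNAs under a pseudocount of 1 and under both scalings, at -0.56 to -0.58. The length and GC correction moved it most, to -0.32 with the ZSCAN5A siRNAs and to -0.50 with si1, and ended the call in both.

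POM121 (chr7:72349936-72418838) anchors the scaffold to the pore membrane and takes part early in pore assembly. It was at 14.3 FPKM in the control and at 8.48, 8.65 and 9.59 FPKM with si4, si5 and si1. The siRNA libraries lay close together and all below the control, with log2 ratios of -0.75 for si4, -0.72 for si5 and -0.57 for si1, the last just short of 1.5-fold (0.672 of the control). With the ZSCAN5A siRNAs 1.45% of genes were lower. The length and GC correction moved it to -0.46 with the ZSCAN5A siRNAs, which ended the call, and to -0.32 with si1. POM121 has a near-identical copy, POM121C, and 41.3% of the 100-base windows of its transcript occur unchanged in POM121C or POM121B. POM121C was at 13.3 FPKM in the control and at 7.79, 8.11 and 9.02 FPKM with si4, si5 and si1. Those are nearly the same ratios, and since the counting could have split reads between the copies, the level of either one is uncertain. Summed, NUP210 and POM121 reached 57.9 FPKM in the control, against 34.7, 40.02 and 35.4 FPKM with si4, si5 and si1. TMEM48 (NDC1), the transmembrane nucleoporin outside the rule, was at 33.2 FPKM in the control and at 38.2, 33.3 and 32.0 FPKM with si4, si5 and si1, so its control value lay within the range of the siRNA libraries.

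In the central channel, NUP62 and NUP54 form the repeat-bearing trimer with NUPL1 (NUP58). NUP62 (chr19:50410084-50432988) was at 40.5 FPKM in the control and at 38.0, 41.0 and 37.1 FPKM with si4, si5 and si1. NUP54 (chr4:77035817-77069655) was at 21.8 FPKM in the control and at 23.2, 20.7 and 19.1 FPKM. The control lay within the range of the siRNA libraries for both. The difference from the control was -0.04 and 0.01 on the log2 scale with the ZSCAN5A siRNAs and -0.13 and -0.19 with si1, and the sign of NUP62 with the ZSCAN5A siRNAs turned under upper-quartile scaling. NUPL1, from the transport list, was at 23.5 FPKM in the control and at 26.3, 22.7 and 21.6 FPKM. Of the transcript windows of NUP62, 14.96% also occur in transcripts of overlapping genes, among them IL4I1, which was below 0.2 FPKM in every library.

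On the cytoplasmic side and among the mRNA export factors the members moved in both directions. NUP88 (chr17:5289346-5323059), the partner of NUP214, was the highest of the 6, at 42.4 FPKM in the control and 52.9, 43.5 and 49.6 FPKM with si4, si5 and si1. It thus stood well above the control with si4 and si1 and close to it with si5. NUP214 (chr9:134000981-134109091), which docks the export helicase, was the lowest of the 6. It was at 11.9 FPKM in the control and at 9.48, 9.498 and 8.74 FPKM with si4, si5 and si1. All 3 siRNA libraries were lower and the values with si4 and si5 were almost equal, with log2 ratios of -0.33 for their mean and -0.44 for si1, or -0.10 and -0.26 after the length and GC correction. These partners therefore lay on opposite sides of the control.

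RANBP2 (chr2:109335937-109402267) forms the cytoplasmic filaments and is a SUMO ligase. It was at 15.7 FPKM in the control and at 19.2, 19.7 and 17.8 FPKM with si4, si5 and si1. All 3 libraries were higher, by 0.31 on the log2 scale for the mean of si4 and si5 and by 0.18 for si1. It shares 14.6% of its 100-base windows with other genes, chiefly of the RGPD family that arose from it, and the highest of those rows, RGPD5, ran the other way (7.09 FPKM in the control and 4.62, 6.02 and 6.11 FPKM with si4, si5 and si1). How the counting shared out such reads is not known, so its level is uncertain to that extent. Of the rest, AAAS, which is mutated in triple A syndrome, stood above the control in all 3 libraries (0.21 with the ZSCAN5A siRNAs and 0.18 with si1), while NUP98 and the export factor RAE1, which bind each other, lay within 0.05 of it in both comparisons.

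As deposited, the basket held the highest ratio of the 28 members with the ZSCAN5A siRNAs, that of TPR. It also held the lowest outside the membrane group, that of NUP50. After the length and GC correction NUP93 of the inner ring had the highest. TPR (chr1:186280786-186344457), the coiled-coil protein that forms the basket filaments and binds checkpoint proteins of the spindle, was at 23.7 FPKM in the control and at 30.2, 29.2 and 25.1 FPKM with si4, si5 and si1. It was higher with both ZSCAN5A siRNAs (0.32 for their mean), while si1 lay nearer to the control (0.08). TPR carries 2 matches to the si1 seed letters and none to those of si4 or si5, and of the 28 members it had the lowest si1 level relative to the mean of si4 and si5, -0.25 on the log2 scale. Over all genes the median of that ratio was -0.02 with a match to si1 and 0.02 without one. For NUP50 and NUP93, which also carry the si1 letters, it was 0.14 and 0.001. Whether a match bears on any of these levels was not tested. The 3′ end of TPR overlaps PRG4 on the other strand, which was below 0.05 FPKM in every library.

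NUP50 (chr22:45559726-45583890), which binds importin alpha and helps to release cargo, was at 27.8 FPKM in the control and at 17.4, 26.8 and 24.4 FPKM with si4, si5 and si1. The low value was found with si4 alone, at -0.68 against the control, whereas the ratio was -0.05 with si5. The mean of -0.33 for the ZSCAN5A siRNAs therefore rests on the si4 library, and without it the ratio did not pass 1.2-fold. The annotated 3′ UTR of NUP50 holds no si4 seed letters and 1 match to those of si1, and its level with si1 lay between si4 and si5. The cause of the low si4 value was not tested, and 1 library cannot tell it from the spread between cultures. NUP153 (chr6:17615269-17706818), a basket protein with zinc fingers that contacts chromatin, hardly differed. It was at 34.3 FPKM in the control and at 35.9, 36.1 and 34.8 FPKM with si4, si5 and si1.

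The ZSCAN5A siRNAs themselves differed little for the other members. Between them, 1 of 28 members, NUP88, was higher with si4 beyond 1.2-fold (all genes 8.62%) and 1, NUP50, was lower (all genes 8.86%). The log2 ratio of si4 to si5 was 0.28 for NUP88 and -0.62 for NUP50. NUP210 (-0.26) and SEH1L (0.24) lay just inside the limit.

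**Figure D4:**
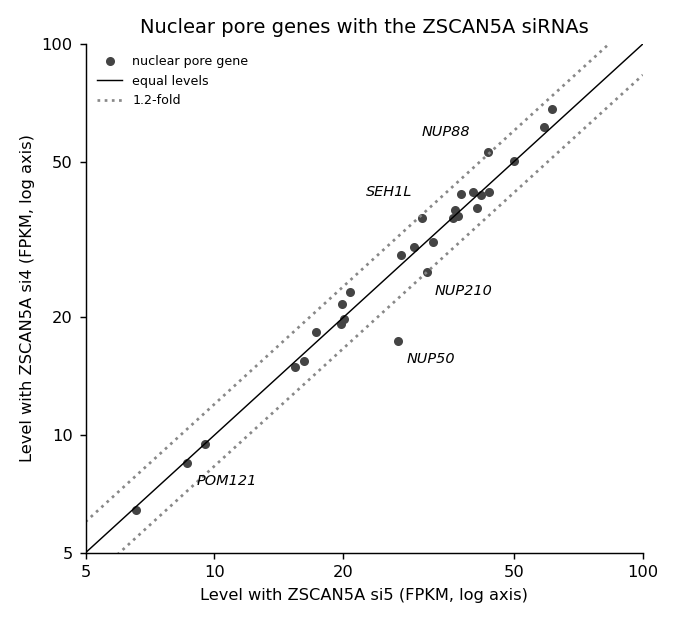
Level of the 28 expressed members with si4 (vertical) against si5 (horizontal), both in FPKM on log axes, with a line of equal levels and dotted lines at 1.2-fold. NUP50 lies below the lower dotted line, NUP88 just above the upper one, and the other 26 lie between them.

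The ZSCAN5A siRNAs were also compared with si1 directly, which does not use the control library. No member differed beyond 1.5-fold (all genes 0.628% higher and 0.683% lower) or beyond 1.2-fold (4.66% higher and 5.77% lower). The log2 ratios ran from -0.16 for POM121 to 0.25 for TPR, with a median of 0.07 against -0.01 for all genes. The differences of NUP210, POM121 and NUP214 from the control thus had no counterpart of that size between the siRNAs.

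The members had longer transcripts of lower GC content than the expressed genes at large (median 5218 against 3310 bases, and 44.1% against 48.2% GC). Over all genes a higher ratio to the control went with lower GC content and shorter transcripts, so the ratios were also read beside these features. Of the 8 members with 50% GC or more, 5 stood below the control with the ZSCAN5A siRNAs (median -0.08). Of the 20 with less, 18 stood above it (median 0.11). NUP210 (58.4% GC) and POM121 (58.0%) had the highest GC content of the 28, followed by AAAS (57.4%), NUP62 (56.6%) and SEC13 (54.7%), whose ratios with the ZSCAN5A siRNAs were 0.21, -0.04 and 0.02. Spearman's rho between GC content and the ratio with the ZSCAN5A siRNAs was -0.44 over the 28 members and -0.16 over 12377 genes, and for transcript length it was 0.08 and -0.33. Points from the same libraries are not independent, so these are descriptions. After subtraction of the median of genes binned alike for transcript length and GC, neither NUP210 nor POM121 passed 1.5-fold in either comparison. Both kept their direction, as given above. The share of all genes past 1.5-fold after this step is not given here. RANBP2 (0.35), TPR (0.36) and NUP50 (-0.32) stood about where they had been with the ZSCAN5A siRNAs. NUP93 moved from 0.16 to 0.38 with the ZSCAN5A siRNAs and from 0.16 to 0.36 with si1. These were the highest corrected ratios of the 28 members in each comparison. The sign turned for 5 of 28 members with the ZSCAN5A siRNAs (NUP188, NUP54, NUP62, NUP62CL and SEC13) and for 3 of 28 with si1 (NUP35, NUP85 and NUP98).

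**Figure D5:**
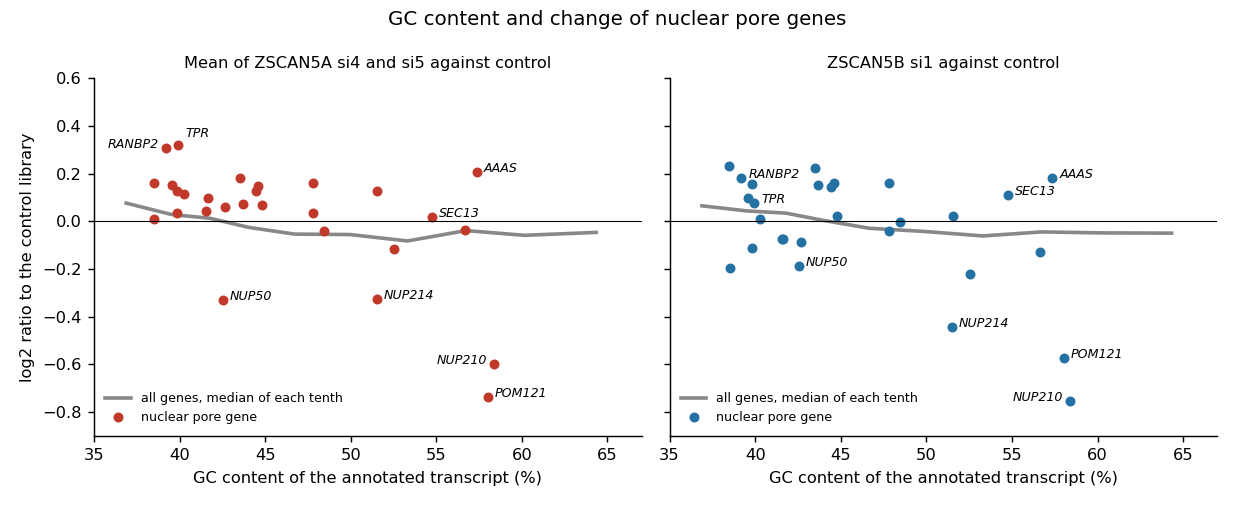
Log2 ratio to the control against the GC content of the annotated transcript for the 28 expressed members (points) with the median of all genes in 10 GC bins of equal size (line), for the mean of si4 and si5 (left) and si1 (right). NUP210 and POM121 lie at the GC-rich end and well below the line.

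The remaining members by symbol were NUP62CL, NUP210L and NUP210P1. NUP62CL, related in sequence to NUP62, was at 14.8 FPKM in the control and at 14.9, 15.4 and 13.7 FPKM with si4, si5 and si1. NUP210L, a relative of NUP210 known from testis, was at 0.00903 FPKM in the control and at 0.00899, 0.0169 and 0.0129 FPKM, which corresponds to about 3 to 8 fragments, so no fold is given. NUP210P1, a pseudogene, was listed at 0 in all 4 libraries.

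The factors that carry cargo through the pore were read from a list of 42 nuclear transport genes, all of them expressed. With the ZSCAN5A siRNAs, 0 were higher and 1, POM121C, was lower beyond 1.5-fold, and at 1.2-fold it was 4 higher and 4 lower (9.52% each). The shares over all genes were 0.677% higher and 3.11% lower, and 9.14% and 17.8% at 1.2-fold. In the library labelled ZSCAN5B knockdown, 0 were higher and 1 was lower beyond 1.5-fold, the importin KPNA5, and at 1.2-fold it was 3 and 5 (7.14% and 11.9%). Over all genes it was 0.844% and 3.17%, and 11.1% and 17.4% at 1.2-fold. The median log2 ratio of the list was 0.05 in both comparisons. KPNA5 was at 11.3 FPKM in the control and at 8.88, 10.2 and 7.31 FPKM with si4, si5 and si1, lowest with si1. The largest rises by the mean over the siRNA libraries were those of CSE1L, which returns importin alpha to the cytoplasm, and NUTF2, which imports Ran. CSE1L was at 91.3 FPKM in the control and at 119, 108 and 116 FPKM with si4, si5 and si1, and NUTF2 at 124 FPKM and at 157, 151 and 152 FPKM. After POM121C, the largest fall was that of the mRNA export receptor NXF1, at 16.0 FPKM in the control and at 11.5, 12.0 and 12.8 FPKM with si4, si5 and si1. For all 3 genes the siRNA libraries lay on one side of the control, and none passed 1.5-fold.

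XPO4, KPNB1 and TNPO1, chosen after their values were seen, also differed between the ZSCAN5A siRNAs beyond 1.2-fold. So did IPO4 and RANGAP1, higher with si4, and KPNA6, lower with si4. Over all genes 8.62% were higher with si4 by this rule and 8.86% were lower. No other gene of the transport list passed the limit, and the shares of the list were below those of all genes. The exportin XPO4 was at 4.71 FPKM with si4 and 7.84 FPKM with si5 (control 7.05, si1 7.31). The importin TNPO1 was at 27.0 FPKM with si4 and 34.8 FPKM with si5 (control 35.8, si1 33.7). Importin beta, KPNB1, ran the other way, at 183 FPKM with si4 and 122 FPKM with si5 (control 149, si1 158).

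The envelope around the pore was read from 20 nuclear envelope and lamina genes, of which 19 were found in the table and all 19 were expressed. With the ZSCAN5A siRNAs 1 was higher beyond 1.5-fold, BANF1, and 0 were lower, where the shares over all genes were 0.677% and 3.11%. At 1.2-fold it was 3 and 2 of 19 (15.8% and 10.5%), against 9.14% and 17.8%. With si1, 2 were higher beyond 1.5-fold, BANF1 and ZMPSTE24, and 0 were lower, where the background was 0.844% and 3.17%. At 1.2-fold it was 2 and 5 of 19 (10.5% and 26.3%), against 11.1% and 17.4%. The median log2 ratio was -0.03 and -0.06. BANF1, which bridges chromatin and the envelope, was at 74.95 FPKM in the control and at 115, 116 and 115 FPKM with si4, si5 and si1, so the siRNA libraries were nearly equal and all higher. After the length and GC correction its ratios were 0.46 and 0.44, short of 1.5-fold. ZMPSTE24, the protease that matures lamin A, was at 23.4 FPKM in the control and at 35.1, 35.1 and 38.6 FPKM, just short of 1.5-fold with the ZSCAN5A siRNAs (0.58 on the log2 scale). The largest falls by the mean over the siRNA libraries were those of SUN1, which links the envelope to the cytoskeleton, and of lamin B1. SUN1 was at 48.1 FPKM in the control and at 38.7, 38.4 and 39.8 FPKM, and LMNB1 at 86.5 FPKM and at 66.6, 76.5 and 68.8 FPKM. The envelope list thus held members well above and members below the control in the same libraries. The pore genes also lay on both sides of the control, but none was higher beyond 1.5-fold in either comparison.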

How the data were processed

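RNA-seq of 4 HEK-293 libraries was used, 1 per siRNA (10 nM, 48 h). Per the labels and methods, the authors trimmed the reads with Trimmomatic 0.30, aligned them to hg19 with TopHat2 2.1.0 and deposited FPKM values from Cufflinks 2.2.1. Cufflinks options and its annotation are not given in the sources used here, and labels and methods name different stranded mRNA kits. The table used gives no counts, and depth came from whole-number steps between low values. Of 1745 genes under 0.1 FPKM, 70.1% stood in whole-number proportions (at most 40, tolerance 0.05%).

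Values were used as deposited (pandas 2.3.3). Genes at 0 on one side were left out. The mean of si4 and si5 is arithmetic, and a log2 ratio carries no pseudocount. Other limits, pseudocounts, scalings and a limma fit were tried as alternatives. Locus starts were shifted by 1 base. Length, GC content and 3′ UTRs came from GENCODE canonical transcripts (94.9% of expressed rows matched), with medians taken in 10 by 10 bins. The rules were run on simulated data with 2-fold changes and little noise, which checks the code and not the spread between cultures. Values are given for members past 1.2-fold, the highest and lowest of each subcomplex, and members under 1 FPKM. From the lists they are given for genes past 1.5-fold and otherwise for the 2 largest rises and falls. Members, lists and rules were chosen with earlier results of these data known.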

Additional observations from a re-analysis of the deposited data

How the results depend on the processing

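The members past the limit with the ZSCAN5A siRNAs numbered 2. They numbered 1 under a pseudocount of 1, median-ratio scaling or upper-quartile scaling, 0 at 2-fold and after the length and GC correction, 6 at 1.2-fold, and 1 to 3 when si4 or si5 was left out. Without si4 it was POM121 alone, and without si5 NUP50 was gained. The fold counts of this section have a share over all genes only as deposited at 1.5-fold and 1.2-fold. Under the other settings they have none, and they are not read as results about the members. Limma 3.58.1 on log2(FPKM + 1) called 0 members, with 5 of 28 at an unadjusted p under 0.05 (all genes 12.8%), and 10 of 13044 genes in all at an adjusted p under 0.05. With si1 the count of 1 became 3 at 1.2-fold and 0 at 2-fold or after the correction. Transport genes went from 1 to 8 at 1.2-fold in both comparisons and to 0 after the correction with the ZSCAN5A siRNAs. Envelope genes with the ZSCAN5A siRNAs (1) became 2 under median-ratio scaling, 5 at 1.2-fold and 0 after the correction, and with si1 (2) became 7 and 1 at 1.2-fold and after the correction. The members' median with the ZSCAN5A siRNAs moved from 0.07 to 0.11 under upper-quartile scaling. Against si1 it moved from 0.067 to 0.055 without an expression limit, 0.076 and 0.096 under median-ratio and upper-quartile scaling, 0.092 after the correction, and 0.063 to 0.076 when si4 or si5 was left out. Median-ratio and upper-quartile scaling moved the siRNA libraries by at most 0.07 on the log2 scale. Beyond what each construction changes, the cause was not tested. For the 28 expressed members the approximate counting error of the si1 to control ratio was 1.09% to 4.04%. With 1 library per siRNA, the spread between cultures is unknown.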
